A study of Homo sapiens with 8 samples.

Results

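The 10 immediate early genes FOS, FOSB, JUN, JUNB, EGR1, IER2, ATF3, DUSP1, ARC and RASD1 were followed in single cells of HMLE, a line of human mammary epithelial cells immortalised with telomerase and a viral large T antigen. They were taken as the rows of those symbols among the 36601 genes of each count matrix, and all 10 were found. The study examined intermediate states of the epithelial-to-mesenchymal transition driven by TGF-β, with and without pyridostatin, a small molecule that stabilises G-quadruplexes, and it marked samples with short barcoded oligonucleotides (SBOs). Per the labels 12 samples were barcoded and mixed, and 4 mRNA libraries with their 4 SBO libraries were made. The labels tie no barcode to TGF-β, pyridostatin or a time, so the 12 barcode populations are described and are not compared as treatments.

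Immediate early genes are transcribed within minutes of a stimulus from factors already present in the cell. Growth factor receptors act on them through the MAP kinases ERK, JNK and p38, which phosphorylate the partners of serum response factor and the CREB and ATF proteins at their promoters. Their products are in part transcription factors, which set off a second set of genes, and in part brakes on the same kinases. In mammary epithelial cells they answer epidermal growth factor and its relatives, and AP-1, the dimer of FOS and JUN proteins, is known to act with SMAD proteins downstream of TGF-β.

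There were 2 pools of 6 barcodes each: pool 1, with SBO01 to SBO06, was loaded as libraries 1 and 2, and pool 2, with SBO07 to SBO12, as libraries 3 and 4. After filtering, 22147 of 26247 cell barcodes were kept (84.4%), with a median of 22199 to 38051 UMIs per cell in the 4 libraries, and 899 cell barcodes occurred in 2 or more libraries. Of the kept cells, 11072 carried 1 SBO, with 352 (SBO04) to 1864 (SBO05) cells per population. In SBO12, 782 of 1227 cells (63.7%) had another SBO with more UMIs, so its membership is uncertain. Each population is 1 sample measured in 2 loads, so the spread between loads is technical, and all cells had been detached with TrypLE before loading, so levels before detachment are not known.

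Epithelial identity was checked with 12 epithelial genes, whose summed level had a median of 12661 CPM (counts scaled to the same total of UMIs in each sum) over the populations. In SBO05 it was 1757 CPM, the lowest of the 12, while the sum of 12 mesenchymal genes was highest there at 5329 CPM, against a median of 2181 CPM. Leukocyte markers summed to 12.5 to 36.7 CPM, with CD3E at 0 in the populations, and 1 of those 6 genes reached a mean of 1 CPM. Endothelial markers summed to 0.206 to 3.63 CPM and fibroblast markers to 0.482 to 12.7 CPM, the highest in SBO05.

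Promoter sequences are shown because the class is defined by how its genes are switched on. RefSeq promoter windows of GRCh38.p14, from 250 bases before to 50 after the start of transcription, were found for 9 of the 10 genes, in 10 windows since ATF3 had 2. FOS and EGR1 are printed as the pair that varied together most closely between cells, DUSP1 for its full cyclic AMP response element, and RASD1 as the gene with the widest range over the populations. Capitals mark a CArG box, the binding letters of serum response factor, or the CRE core TGACG on either strand.
FOS promoter, chr14:75278578-75278877, plus strand: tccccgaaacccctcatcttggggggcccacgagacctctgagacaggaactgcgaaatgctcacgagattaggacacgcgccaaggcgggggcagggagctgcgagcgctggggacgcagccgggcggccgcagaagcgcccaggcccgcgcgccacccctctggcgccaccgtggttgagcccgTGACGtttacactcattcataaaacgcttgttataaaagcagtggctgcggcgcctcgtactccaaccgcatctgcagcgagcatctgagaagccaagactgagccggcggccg
EGR1 promoter, chr5:138465229-138465528, plus strand: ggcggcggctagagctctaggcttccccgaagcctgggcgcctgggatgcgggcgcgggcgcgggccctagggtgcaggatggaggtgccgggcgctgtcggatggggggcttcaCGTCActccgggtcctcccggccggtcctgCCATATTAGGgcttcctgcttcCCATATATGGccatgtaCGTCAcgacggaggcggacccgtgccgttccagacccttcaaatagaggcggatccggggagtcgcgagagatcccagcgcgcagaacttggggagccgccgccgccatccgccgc
DUSP1 promoter, chr5:172771146-172771445, minus strand: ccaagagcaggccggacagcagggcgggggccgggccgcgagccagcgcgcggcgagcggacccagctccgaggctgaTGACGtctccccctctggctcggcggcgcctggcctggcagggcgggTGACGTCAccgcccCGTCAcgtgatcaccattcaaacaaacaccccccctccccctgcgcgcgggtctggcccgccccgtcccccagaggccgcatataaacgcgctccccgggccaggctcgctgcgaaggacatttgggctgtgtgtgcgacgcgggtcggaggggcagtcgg
RASD1 promoter, chr17:17496346-17496645, minus strand: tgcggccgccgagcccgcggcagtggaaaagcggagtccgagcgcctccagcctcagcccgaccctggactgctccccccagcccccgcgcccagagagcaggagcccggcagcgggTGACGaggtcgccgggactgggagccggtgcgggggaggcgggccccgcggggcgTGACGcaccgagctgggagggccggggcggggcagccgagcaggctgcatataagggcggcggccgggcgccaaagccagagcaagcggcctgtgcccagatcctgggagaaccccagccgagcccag

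The core TGACG was found on either strand in the windows of 8 of the 9 genes, all but ATF3, while 24.6% of 35116 RefSeq promoter windows hold it. It lies within the full element TGACGTCA, which only DUSP1 held among the 9 genes and which 1.85% of all windows hold. A CArG box was present in EGR1 alone of these windows, where there were 2, and in 1.29% of all windows. TATAAA was found in 5 of the 9 genes (ATF3, DUSP1, FOS, FOSB and JUNB), against 11.5% of all windows. In DUSP1, FOS, FOSB and JUNB it lay close before the start of transcription. In ATF3 it lay only in the second window, far before the start and inside the gene. The ATF3 match is therefore not shown to be a TATA box of a promoter. The AP-1 letters TGANTCA were found in none of the 9 genes, against 7.71% of all windows. The G-quadruplex motif, the structure that pyridostatin binds, was found in EGR1 and RASD1 and in 25.0% of all windows. A match describes these letters in these windows and is not a bound site. Bases outside the windows were not searched, so a motif missing here may lie further from the start. The second ATF3 window, chr1:212614768-212615067, lies inside the gene as annotated, chr1:212565334-212620777. Other starts of ATF3 were not searched, so a missing motif there is not shown for every ATF3 promoter.

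In the annotation of GENCODE release 29 on hg38, FOS lies at chr14:75278774-75282230, EGR1 at chr5:138465490-138469315 and JUN at chr1:58780788-58784327. RASD1 lies at chr17:17494437-17496395 and DUSP1 at chr5:172768090-172771195. FOSB, IER2 and JUNB lie on chromosome 19 and ATF3 on chromosome 1. All are protein coding, and their UMIs come from the start of the transcript, since a kit that reads the 5′ end was used.

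Over the 12 populations FOS, FOSB, JUN, EGR1 and DUSP1 had their highest level in SBO05, while JUNB was highest in SBO04 and had its lowest level in SBO05. IER2 and ATF3 were highest in SBO09. ARC and RASD1 were near 0 in some populations and stood highest in SBO10. Of the 10 genes, 7 had a mean of at least 20 CPM, and their ranges on the log2(CPM + 1) scale ran from 0.61 (JUNB) to 1.79 (DUSP1). The median range of the 6097 genes at that level was 0.50, and the median spread between 2 loads was 0.08 (SD, log2).

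FOS, which pairs with JUN proteins to form AP-1, was at 157 CPM in SBO05, with 155 and 159 CPM in its 2 loads. Next came SBO10 (110 CPM), SBO09 (104 CPM), SBO04 (100 CPM) and SBO08 (92.9 CPM). The lowest levels were 49.1 CPM in SBO07 and 51.1 CPM in SBO01. SBO05 stood apart from SBO10 by more than the spread between loads (SD 0.12, log2), and 7 of the 11 neighbouring pairs in the order did not. FOSB, a close relative of FOS, was at 9.14 CPM in SBO05 (9.06 and 9.24 CPM by load), against a median of 4.89 CPM and a lowest level of 2.76 CPM in SBO01.

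JUN, the main partner of FOS, was at 503 CPM in SBO05, with 515 and 487 CPM by load. The following levels were 378 CPM in SBO09 and 360 CPM in SBO08, and the lowest was 161 CPM in SBO11. JUNB, a JUN relative that forms AP-1 dimers of weaker transforming activity, took another order. Its level was 107 CPM in SBO05 (107 and 107 CPM by load), below the 117 CPM of SBO11 and the 120 CPM of SBO07, and highest at 164 CPM in SBO04. The range of JUNB was about as wide as that of IER2 and narrower than that of the other 5 genes whose mean reached 20 CPM.

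EGR1, a zinc finger transcription factor and a classic target of serum response factor, was at 187 CPM in SBO05, with 180 and 196 CPM by load. SBO09 followed at 121 CPM and SBO12 at 113 CPM, and the lowest level was 68.9 CPM in SBO11. Without SBO05 the log2 range of EGR1 was 0.80 in place of 1.43, so 1 population made up much of it. IER2, a small nuclear protein induced by serum, was highest at 229 CPM in SBO09, within the spread between loads of the 226 CPM in SBO05, and lowest at 147 CPM in SBO11.

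ATF3, a stress-responsive member of the ATF family, was at 57.4 CPM in SBO09, 52.3 CPM in SBO04 and 19.1 CPM in SBO01. Its spread between loads was the widest of the 7 genes (SD 0.27, log2), and 10 of its 11 neighbouring pairs did not differ beyond it. DUSP1, the phosphatase that switches off p38, JNK and ERK, was at 113 CPM in SBO05, 96.0 CPM in SBO08 and 31.7 CPM in SBO12. Low levels of ATF3 and DUSP1 were shared by SBO01 and SBO12, where EGR1 was above its median of 91.0 CPM.

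ARC, known in neurons as an activity-regulated gene of synapses, was at 17.4 CPM in SBO10, with 18.4 and 16.2 CPM by load. It was at 13.2 CPM in SBO05, 11.5 CPM in SBO08 and 5.78 CPM in SBO09, and at 0.553 CPM in SBO01 and 0.891 CPM in SBO12. RASD1, a Ras-related GTPase known for its induction by dexamethasone, was at 34.8 CPM in SBO10 (36.5 and 32.6 CPM by load) and 26.7 CPM in SBO08 (27.7 and 25.7 CPM by load). SBO05 followed at 11.9 CPM, and SBO12 and SBO01 were lowest at 0.982 and 0.594 CPM. The highest level of RASD1 was 58.6-fold the lowest and that of ARC 31.5-fold, with a mean under 20 CPM for both genes.

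**Figure D1:**
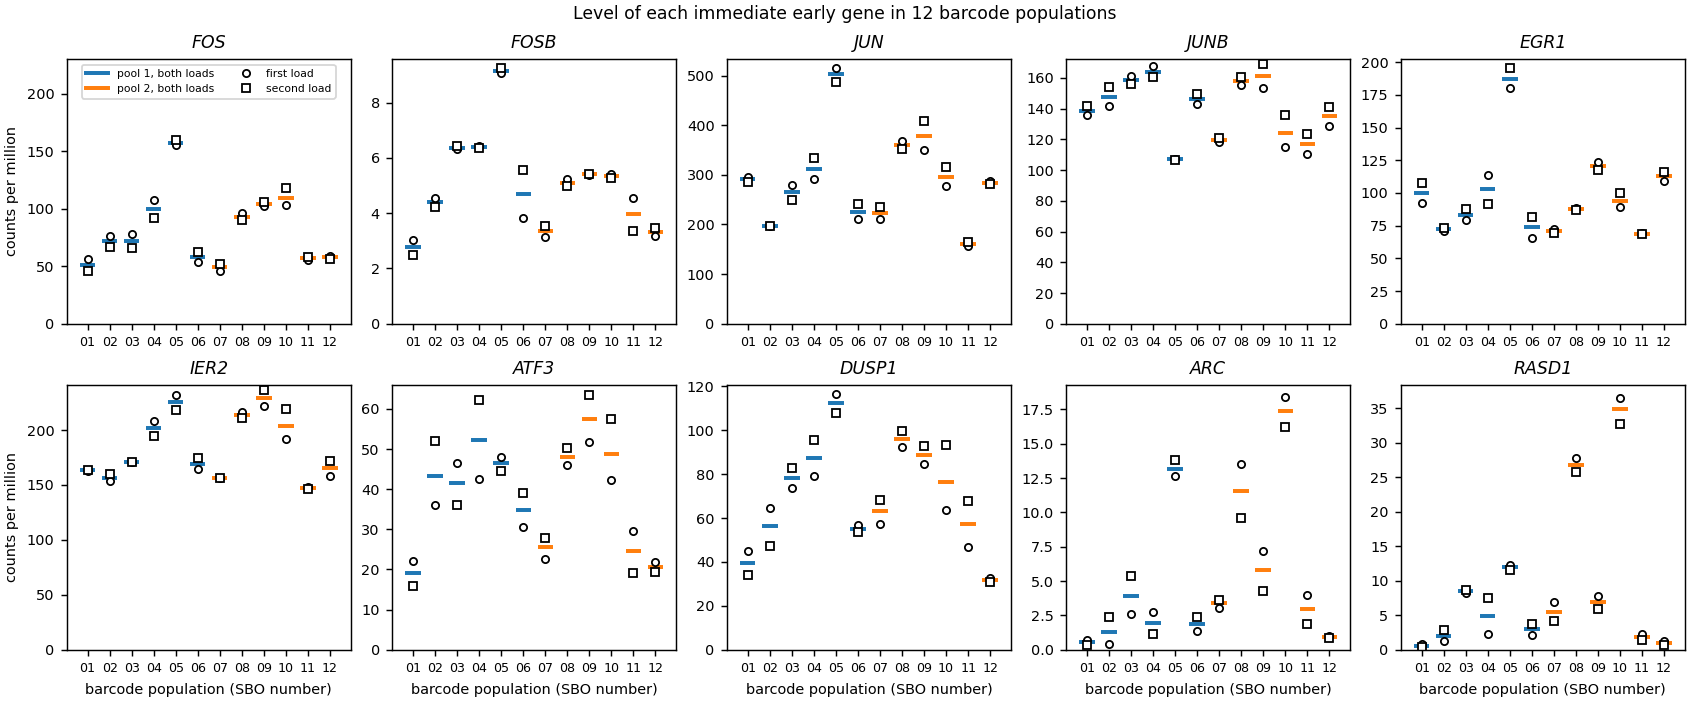
Level of each gene in CPM (y axis) in the 12 barcode populations (x axis); bars are the sum over both loads and the circle and square are the 2 loads of the same sample. SBO05 is highest for FOS (157 CPM), JUN (503 CPM) and EGR1 (187 CPM) and lowest for JUNB (107 CPM), and SBO10 is highest for ARC (17.4 CPM) and RASD1 (34.8 CPM).

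The highest and the lowest population were looked up again under 9 other ways of computing a level. FOS, FOSB, JUN, EGR1 and DUSP1 kept SBO05 as the highest and ARC and RASD1 kept SBO10 as the highest in all 9. IER2 and ATF3 kept SBO09 in 6 of 9 and JUNB kept SBO04 in 7 of 9. The lowest population was kept in 5 of 9 for FOS, where SBO01 took the place of SBO07, in 7 of 9 for ATF3 and ARC, and in 8 or 9 of 9 for the others. One of the 9 assigned a cell to its highest barcode if that had at least 10 UMIs and at least 3 times those of the next. SBO08 then held 2962 cells in place of 863. Its RASD1 level was 12.0 CPM in place of 26.7 CPM, ARC 5.14 in place of 11.5 CPM, JUN 268 in place of 360 CPM and DUSP1 64.9 in place of 96.0 CPM. EGR1 was at 87.2 CPM in place of 87.8 CPM. The place of SBO08 among the high populations thus depends on the assignment of cells. By the same rule SBO12 held 98 cells in place of 1227. Its DUSP1 level was then 44.5 CPM in place of 31.7 CPM, and SBO01 was the lowest for DUSP1 at 39.0 CPM. The place of SBO12 as the lowest for DUSP1 depends on the assignment too.

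Among other immediate early genes, a list of 28, 16 had a mean of at least 20 CPM, and 2 of the 16 were highest in SBO05 and 5 lowest there. CCN1, a secreted matrix protein, was at 668 CPM in SBO05 against a median of 212 CPM, and JUND, another AP-1 subunit, at 196 CPM against 85.1 CPM. FOSL1, which encodes the AP-1 subunit FRA-1, was at 36.6 CPM in SBO05 and 109 CPM in SBO08, and ZFP36, whose protein shortens the life of such messages, at 43.7 CPM in SBO05 and 119 CPM in SBO09. Of the feedback genes of the ERK pathway 4 reached 20 CPM and all 4 were lowest in SBO05, among them DUSP4 at 18.6 CPM and PHLDA1 at 45.6 CPM. AREG, which encodes the EGF receptor ligand amphiregulin, was at 17.5 CPM in SBO05 and 430 CPM in SBO01. So FOS, JUN and EGR1 stood highest in the population in which amphiregulin and the feedback genes DUSP4, DUSP5, ETV4 and PHLDA1 stood lowest. Extremes in SBO05 also occurred in other lists, among genes of at least 20 CPM. Of 11 heat shock genes 8 were lowest and 0 highest there, and of 10 upstream genes, AREG among them, 4 and 1. Of 8 genes of the integrated stress response 1 was lowest and 4 highest there. The share over all genes was not computed, so no list is set apart by these counts. Summed G2/M genes were also highest in SBO05, at 4027 CPM against a median of 3270 CPM, and the part of cell cycle, depth or marker levels in these values was not tested.

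A population's level joins how many cells hold a transcript and how much each holds. To separate them, cells were thinned to 10000 UMIs each, which 10233 cells reached, and intervals are exact 95% binomial intervals of counting error. FOS was detected in 40.9% of SBO05 cells (38.6 to 43.3%), near the 42.6% of SBO04 and the 40.6% of SBO09, and in 26.7% of SBO07 cells. For FOS, what set SBO05 apart was the amount per cell: its FOS-positive cells held 3.98 UMIs on average, against a median of 2.22 over the populations. At least 5 FOS UMIs were found in 10.9% of SBO05 cells (9.46 to 12.5%), against a median of 3.56%.

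The same held for EGR1 and IER2. EGR1 was detected in 46.3% of SBO05 cells, below the 55.3% of SBO12, but its positive cells held 4.22 UMIs in SBO05 against a median of 2.09. IER2 was detected in 63.3% of SBO05 cells, the lowest share of the 12 populations, while positive cells held 3.64 UMIs there against a median of 2.38. JUN-positive cells held 7.18 UMIs in SBO05 against a median of 3.64. For JUNB, the share of cells was lowest in SBO05 (47.5%), and positive cells held 2.37 UMIs against a median of 2.26. DUSP1 differed: its share of cells was highest in SBO05 (49.2%), and positive cells held 2.44 UMIs there, under the 2.52 of SBO08. FOSB was highest in SBO05 in both, with 6.66% of cells and 1.37 UMIs per positive cell.

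Counted per cell, SBO05 had many cells at both ends, though other populations came close at each. Of its 1726 thinned cells, 7.18% held 8 or more of the 10 transcripts and 5.39% held none. Shares with none were 4.90% in SBO11 and 4.69% in SBO02, and 0.330% in SBO04 as the lowest. SBO10 (7.30%), SBO08 (6.54%) and SBO09 (4.68%) also had many cells with 8 or more, while SBO02 had 0.213% and SBO11 0.408%. The tenth of cells with most immediate early UMIs held 46.5% of them in SBO05, 44.1% in SBO09, 41.4% in SBO10 and 39.5% in SBO08, and 28.8% in SBO01 as the lowest. SBO05 also had the lowest median depth before thinning, 20862 UMIs, and the thinned level of FOS was 163 CPM there.

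**Figure D2:**
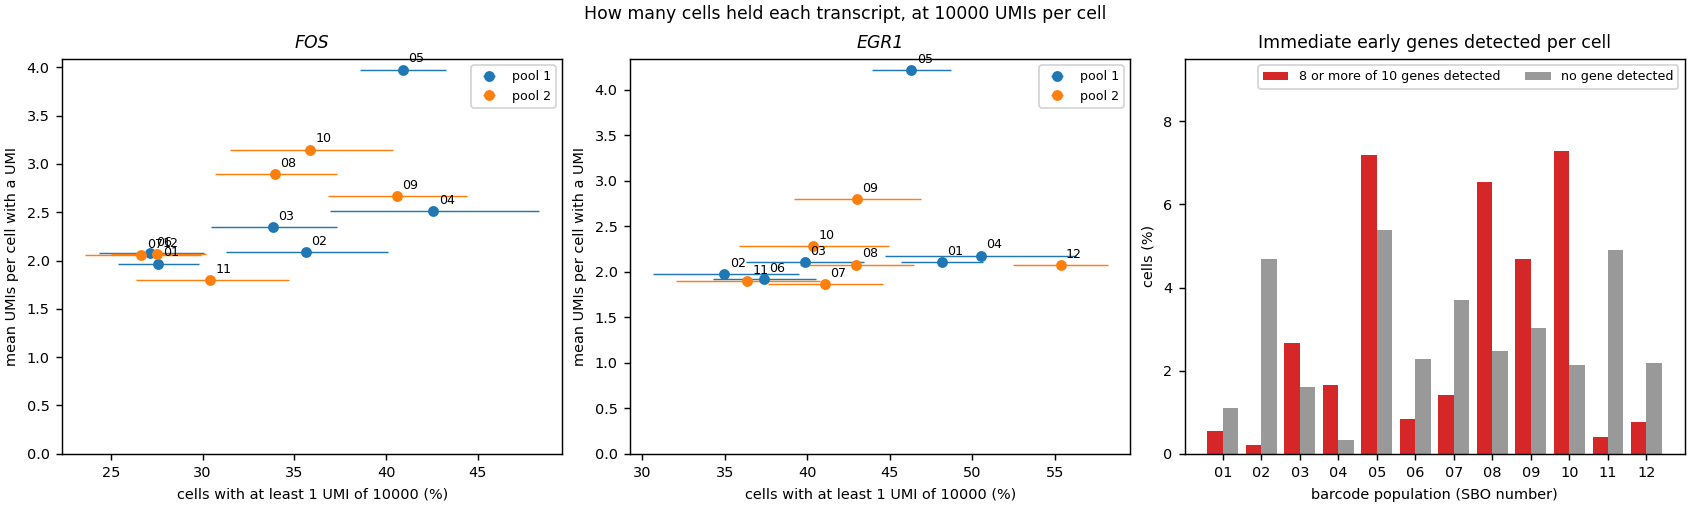
Left and middle, the share of cells with at least 1 UMI after thinning to 10000 UMIs (x axis, %, bars are exact 95% binomial intervals) against the mean UMIs per positive cell (y axis) for FOS and EGR1, 1 point per barcode population; right, the share of cells (y axis, %) with 8 or more of the 10 transcripts or with none. SBO05 lies above the other populations at 3.98 FOS and 4.22 EGR1 UMIs per positive cell.

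ARC and RASD1 were held by few cells. After thinning, ARC was detected in 11.2% of SBO10 cells (8.45 to 14.4%), 8.15% of SBO08 cells and 7.88% of SBO05 cells, and in 0.493% of SBO01 cells (0.213 to 0.970%). RASD1 was detected in 12.7% of SBO10 cells (9.78 to 16.0%), 10.7% of SBO08 cells and 8.69% of SBO05 cells, and in 0.740% of SBO01 cells (0.383 to 1.29%). No population is known to lack these transcripts, so the SBO01 shares serve as the highest level that free RNA in its droplets could give. Before thinning the shares were 17.4% for ARC and 20.9% for RASD1 in SBO10, and 1.16% and 1.22% in SBO01, at median depths of 32999 and 27715 UMIs. SBO11, in the same libraries as SBO10, was at 1.43% for ARC and 1.02% for RASD1 after thinning.

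Between cells of a population the genes varied together, most of all FOS with EGR1. Over the 12 populations the median Spearman correlation of thinned counts was 0.30 for FOS and EGR1, with 0.24 in SBO12 as the lowest and 0.55 in SBO05 as the highest. Cells holding both numbered 2123, where 1486 would hold both if the 2 genes were independent within each population. Medians over the 45 pairs ran from 0.05 (JUNB and ARC) to this 0.30, and the cells share their library and their thinned depth. Thinning to 5000 UMIs lowered the FOS and EGR1 median to 0.19.

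ARC and RASD1 shared cells beyond their numbers. They were found together in 166 cells where 28.5 would be so if independent, 5.82 times as many. Their correlation was 0.60 in SBO10, 0.51 in SBO08, 0.38 in SBO05 and -0.01 in both SBO01 and SBO12, where both genes are rare and no cell held both. In SBO10, 35 cells held both against 6.58 if independent.

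SBO05 had higher correlations than the median for EGR1, JUN and FOS with IER2 and for ATF3 with JUN. EGR1 with IER2 was at 0.57 in SBO05 and at a median of 0.26, JUN with IER2 at 0.52 and 0.27, and FOS with IER2 at 0.51 and 0.20. ATF3 with JUN was at 0.40 in SBO05 and at a median of 0.25. Positive cells of SBO05 also held more UMIs of FOS, JUN, EGR1 and IER2 than the median, and the part of this in the correlations was not tested.

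**Figure D3:**
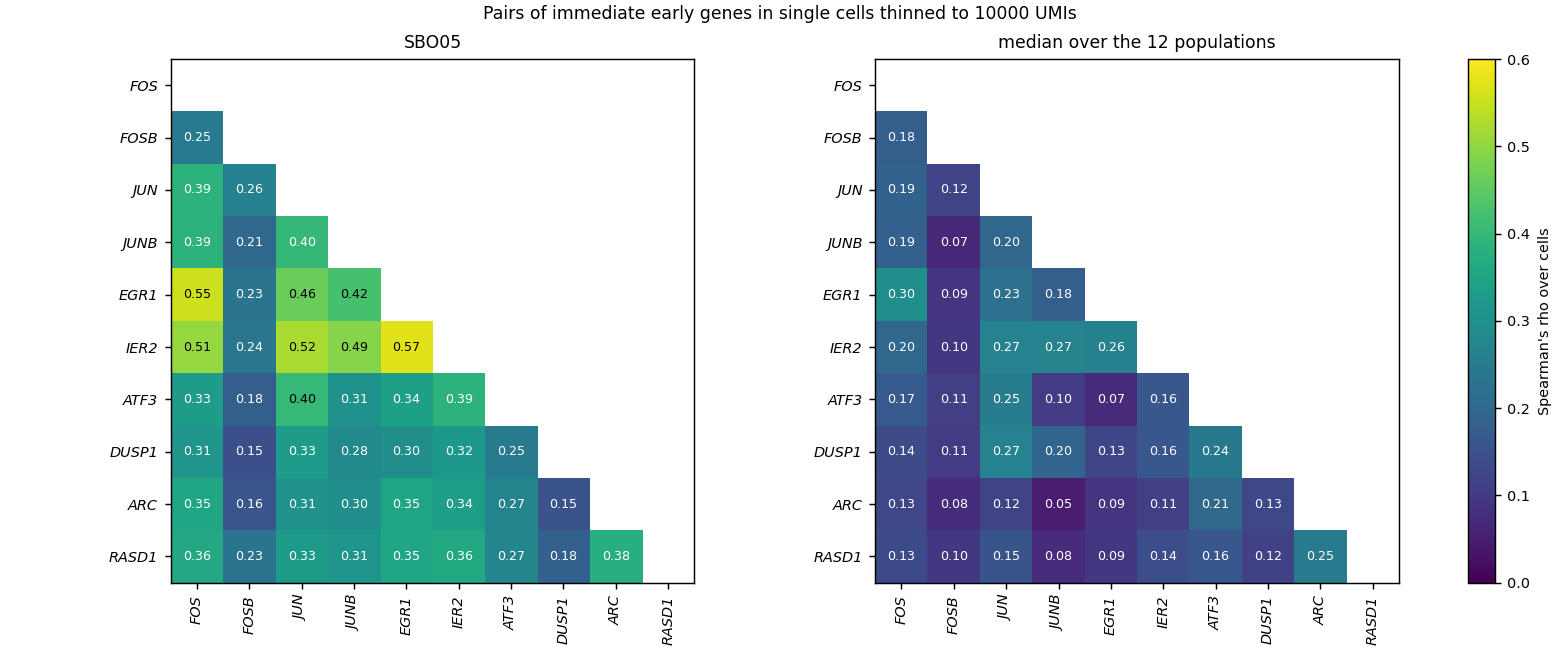
Spearman correlation over cells thinned to 10000 UMIs for the 45 pairs of genes, in SBO05 (left) and as the median over the 12 barcode populations (right); colour gives rho. EGR1 with IER2 is at 0.57 in SBO05 and 0.26 in the median, and ARC with RASD1 is at 0.38 and 0.25.

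The genes of most similar pattern were found by Pearson correlation among those with a mean of at least 20 CPM. Over cells within populations the closest to FOS was EGR1 (0.37), followed by IER2 (0.28) and JUN (0.27), all of them immediate early genes. The closest to DUSP1 was JUN (0.34), and the closest to ATF3 was SNHG12 (0.38), a host gene of small nucleolar RNAs. For ARC and RASD1 it was GADD45B, a stress-induced gene of the GADD45 family, at 0.29 and 0.33. The 99th percentile over all pairs of a member and another gene was 0.10. Over the 12 populations the closest to FOS was DDIT3 (0.95), which encodes the stress transcription factor CHOP, the closest to RASD1 was IER5L (0.96), and the closest to ARC was BUD31 (0.94). These correlations over 12 populations are a description, and the populations share pools and libraries.

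The next comparisons ask how the genes go with the state of a cell. Within each population and library, cells were split into low, middle and high tiers of equal size by a score, UMIs were summed by library and tier, and the high tier was set against the low tier in edgeR's quasi-likelihood test with the library as a block. Adjusted p-values are Benjamini-Hochberg over all genes tested, and the level is the share of a cell's UMIs, not an amount per cell. The 4 libraries are 2 loads of 2 pools, so the p-values measure spread between loads and pools and not between cultures.

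By the mesenchymal minus epithelial score, a difference of averaged z-scores over 12 genes of each kind, JUN, EGR1, ARC and RASD1 were higher in the mesenchymal tier and IER2 was lower. That is 4 of 10 genes higher and 1 lower, where 18.3% and 16.3% of the 15279 genes tested were called higher and lower. JUN was at 349, 328, 319 and 342 CPM in the high tier of libraries 1 to 4, against 305, 311, 254 and 286 CPM in the low tier, and the tiers did not overlap (log2 difference 0.22, SE 0.04, adjusted p = 0.00064). EGR1 averaged 113 ± 6.92 CPM in the high tier and 96.6 ± 10.5 CPM in the low tier (SD, n = 4 each), with a log2 difference of 0.24 and an adjusted p of 8.5e-05 in edgeR. IER2 averaged 177 ± 8.71 CPM in the high tier and 199 ± 5.41 CPM in the low tier (SD, n = 4 each), lower in all 4 libraries (log2 difference -0.16, edgeR adjusted p = 0.00031). With tiers set over a whole library instead of within each population, the difference of IER2 turned to 0.09 and did not pass (edgeR adjusted p = 0.43). These changes were small against those of ARC and RASD1.

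ARC was at 4.05, 5.07, 10.4 and 8.93 CPM in the high tier of libraries 1 to 4, against 4.07, 5.26, 3.95 and 2.86 CPM in the low tier. RASD1 was at 6.95, 4.78, 20.6 and 16.4 CPM in the high tier, against 4.89, 6.65, 6.67 and 6.39 CPM in the low tier. In libraries 3 and 4 the high tier stood above the low tier for both genes, and in libraries 1 and 2 the values lay close together or crossed. Over the 4 libraries the log2 difference was 0.81 for ARC (SE 0.21, edgeR adjusted p = 0.006) and 0.93 for RASD1 (SE 0.20, edgeR adjusted p = 0.0011).

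The difference between pools was itself tested, and 2.68% of all genes passed. Each pool is 1 set of samples loaded 2 times, so this test sets the pools against the technical spread between loads and says nothing of the spread between cultures. For ARC the log2 difference was 1.52 in pool 2 and -0.03 in pool 1, and for RASD1 1.51 in pool 2 and 0.04 in pool 1, with adjusted p-values of 8.5e-05 and 8.1e-05 for the difference between pools in edgeR. FOS differed likewise, at 0.49 in pool 2 and -0.08 in pool 1 (edgeR adjusted p = 0.0068), and so did DUSP1, at 0.32 in pool 2 and -0.03 in pool 1 (edgeR adjusted p = 0.042). FOS, FOSB, JUNB, ATF3 and DUSP1 did not pass over the 4 libraries.

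By population, SBO05 of pool 1 went the other way from the populations of pool 2. In SBO05 RASD1 was at 9.36 CPM in the high tier and 15.6 CPM in the low tier, ARC at 10.1 and 14.9 CPM, and FOS at 144 and 172 CPM. In SBO10 RASD1 was at 73.3 CPM in the high tier and 13.7 CPM in the low tier, and FOS at 149 and 78.2 CPM. RASD1 was higher in the high tier in 6 of 6 populations of pool 2 and in 3 of 6 of pool 1, and ARC in 6 of 6 and 4 of 6. FOS was higher in 6 of 6 and 3 of 6. DUSP1 was higher in 4 of 6 populations of pool 2 and in 5 of 6 of pool 1, so its counts did not follow its pool difference. Some directions of RASD1 and ARC rest on few UMIs. Over all its cells, SBO12, of uncertain membership, had 43 RASD1 and 39 ARC UMIs. SBO02 had 26 RASD1 and 17 ARC UMIs, and SBO04 had 17 ARC UMIs. With SBO05 left out, a choice made after its levels were seen, the log2 differences were 1.41 for RASD1 (edgeR adjusted p = 9.1e-10) and 1.49 for ARC (edgeR adjusted p = 5.4e-09), and FOS then passed at 0.31 (edgeR adjusted p = 0.0079).

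**Figure D4:**
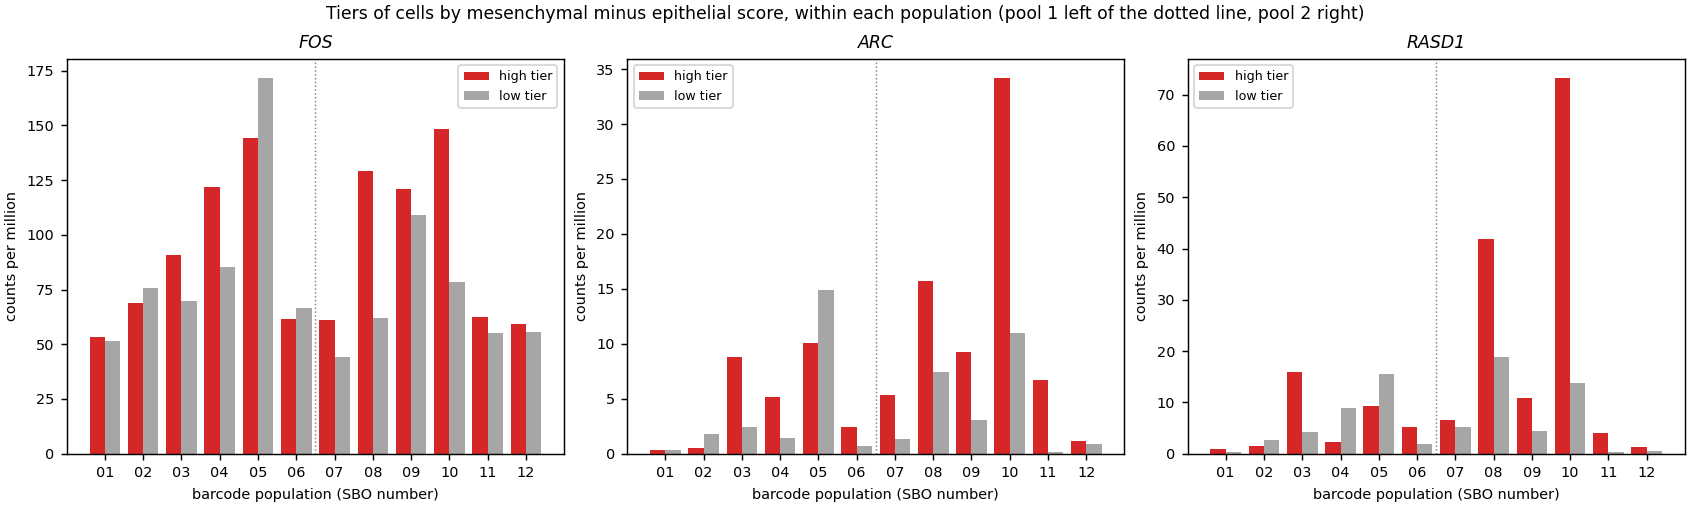
Level of FOS, ARC and RASD1 in CPM (y axis) in the high and the low tier of cells by the mesenchymal minus epithelial score in each barcode population (x axis). In SBO10 RASD1 is at 73.3 CPM in the high tier and 13.7 CPM in the low tier, and in SBO05 at 9.36 and 15.6 CPM.

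High-tier cells were shallower, with median depths of 21850 to 39889 UMIs in the 4 libraries against 25007 to 40892 UMIs in the low tier, and with all cells thinned to 10000 UMIs ARC was at 0.91 and RASD1 at 0.86. Without the library block none of the 5 genes passed (edgeR adjusted p of 0.075 to 0.17), DESeq2 did not call ARC or RASD1 (adjusted p = 0.093 and 0.075), and ARC did not pass without library 3 (0.57) or without library 4 (0.53). Without library 2 FOS (0.36) and DUSP1 (0.22) passed, and without library 4 JUNB (-0.09) and ATF3 (-0.26) did.

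Of the other lists, AP-1 targets had 8 of 13 tested genes higher in the high tier of this score and 2 lower, with a median log2 difference of 0.20 against 0.01 over all genes. HMOX1, the heme-degrading enzyme heme oxygenase, was higher at 0.59, and PLAUR, the urokinase receptor, was lower at -0.76. Over all genes 18.3% were higher and 16.3% lower. Other immediate early genes had 11 of 25 higher and 8 lower, among them CCN1 at 0.81 and ZFP36 at -0.25. ERK feedback genes had 5 of 11 higher and 1 lower, with PHLDA1 at 0.39. Upstream genes had 4 of 20 higher and 5 lower, shares near those of all genes, with AREG at 0.64. Glucocorticoid targets had 3 of 10 higher and 3 lower, and basal keratin and integrin genes had 6 of 7 higher.

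By the G2/M score, the mean standardised expression of 20 genes of late cell division, 9 of the 10 immediate early genes were lower in the high tier and all 10 differences were below 0. FOSB was the one not called, at -0.21 (edgeR adjusted p = 0.13). Among all 15291 genes tested, 47.8% were called, 25.9% lower and 21.8% higher, and the median difference was -0.02. FOS was at 73.5, 67.6, 56.4 and 57.2 CPM in the high tier of libraries 1 to 4, against 106, 95.2, 91.2 and 88.4 CPM in the low tier. The tiers did not overlap, and the middle tier lay between them in each library (log2 difference -0.62, SE 0.03, edgeR adjusted p = 2.0e-14). JUNB was at 113, 116, 113 and 117 CPM in the high tier, against 151, 159, 145 and 165 CPM in the low tier, again with no overlap (log2 difference -0.47, SE 0.03, edgeR adjusted p = 3.8e-14).

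EGR1 averaged 85.5 ± 14.5 CPM in the high tier and 106 ± 9.16 CPM in the low tier (SD, n = 4 each), IER2 157 ± 7.82 and 191 ± 10.0 CPM, and ATF3 31.0 ± 0.748 and 38.9 ± 2.89 CPM. Their log2 differences were -0.36, -0.32 and -0.37, each lower in 4 of 4 libraries. ARC fell furthest, by 0.97 on the log2 scale (SE 0.11, edgeR adjusted p = 7.8e-08), with 3.54 ± 1.33 CPM in the high tier and 6.74 ± 1.32 CPM in the low tier (SD, n = 4 each). RASD1 fell by 0.50 (edgeR adjusted p = 4.0e-05). FOS, JUNB, IER2 and ATF3 were lower in the high tier in all 12 populations, EGR1 in 11, JUN in 10, ARC and DUSP1 in 9, and RASD1 in 6.

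For EGR1 and JUN the middle tier was the highest in all 4 libraries. The means of IER2 and DUSP1 were also highest in the middle tier, at 201 and 71.7 CPM, but not in every library: in library 3 the low tier of IER2 was at 198 CPM and the middle tier at 196 CPM, and in libraries 1 and 2 the low tier of DUSP1 was the highest. EGR1 averaged 118 CPM in the middle tier and JUN 344 CPM, while JUN was at 272 CPM in the high tier and 295 CPM in the low tier. So the level of EGR1 and JUN did not run evenly over the tiers.

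JUN (-0.16) and DUSP1 (-0.15) were the weakest of the 9. High-tier cells were deeper, with median depths of 25605 to 41780 UMIs in the 4 libraries against 21584 to 38897 UMIs in the low tier, and at equal depth JUN was at -0.04 and DUSP1 at -0.07, neither of them called (edgeR adjusted p = 0.50 and 0.33), while the other 7 stayed called. Without the library block JUN, DUSP1 and RASD1 did not pass (edgeR adjusted p = 0.13, 0.32 and 0.45), and DUSP1 also did not pass without library 4 (-0.08, edgeR adjusted p = 0.12) or in DESeq2 (adjusted p = 0.18).

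Pools differed in size for 3 genes, where 0.719% of all genes did. JUN was at -0.28 in pool 2 and -0.04 in pool 1 (edgeR adjusted p of the difference = 0.0038), EGR1 at -0.51 in pool 2 and -0.21 in pool 1 (0.0065), and IER2 at -0.41 in pool 2 and -0.20 in pool 1 (0.019). All 3 values were below 0 in both pools, but that of JUN in pool 1 did not pass (edgeR adjusted p = 0.38). In library 1 JUN was at 315 CPM in the high tier and 298 CPM in the low tier.

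Other immediate early genes had 17 of 25 lower and 2 higher by the G2/M score, with BTG2, an antiproliferative p53 target, at -0.54 and IER3 at -0.46, where 25.9% of all genes were lower and 21.8% higher. ERK feedback genes had 8 of 11 lower and 2 higher. The p53 targets had 10 of 12 lower, led by CDKN1A, the p21 inhibitor of cyclin-dependent kinases, at -1.09 with 146 ± 19.1 CPM in the high tier and 306 ± 70.3 CPM in the low tier (SD, n = 4 each). Heat shock genes went the other way, with 8 of 12 higher and 3 lower, among them the chaperone HSPH1 at 0.32.

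**Figure D5:**
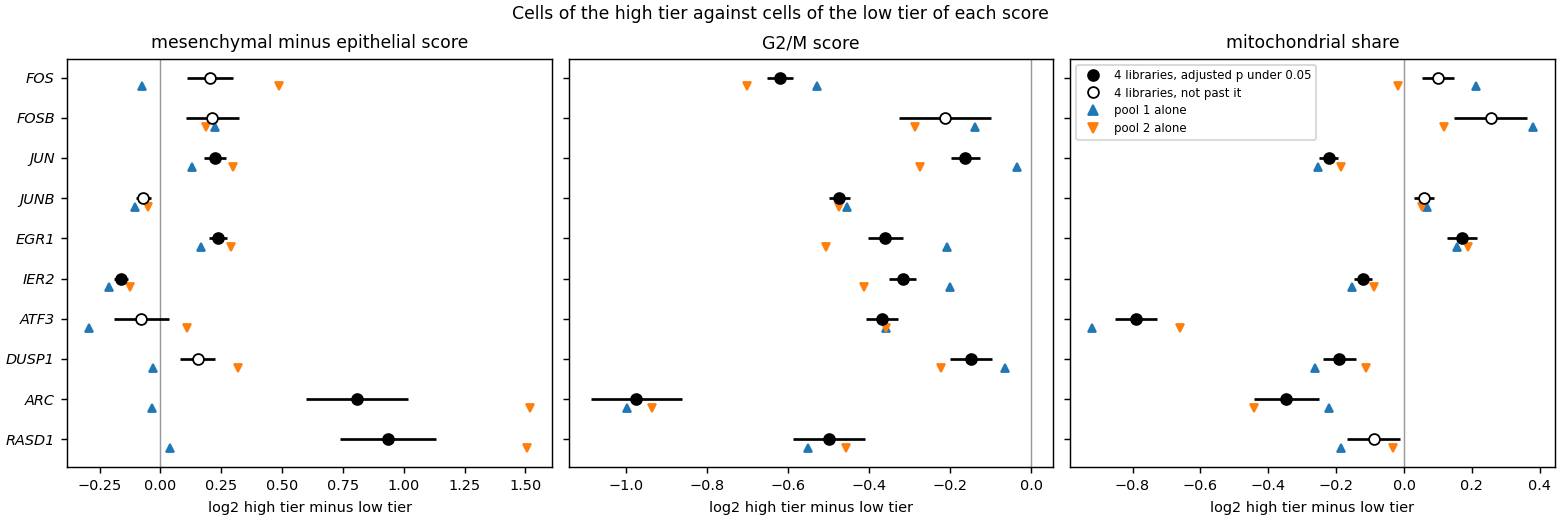
Log2 difference between the high and the low tier of cells (x axis) for the 10 genes (y axis) by 3 scores; circles are the 4 libraries together with their standard error, filled where the adjusted p in edgeR was under 0.05, and triangles are each pool alone. By the G2/M score FOS is at -0.62 and ARC at -0.97, and by the mesenchymal score RASD1 is at 1.51 in pool 2 and 0.04 in pool 1.

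By the share of UMIs from mitochondrial genes, a measure that also follows the state of the RNA, 1 of the 10 genes was higher in the high tier and 5 were lower, where 17.8% and 18.8% of the 15323 genes tested were higher and lower. ATF3 was at 24.8, 25.1, 26.2 and 28.9 CPM in the high tier of libraries 1 to 4, against 42.9, 47.7, 42.4 and 42.6 CPM in the low tier. The tiers did not overlap, the log2 difference was -0.79 (SE 0.06, edgeR adjusted p = 2.0e-09), and ATF3 was lower in 11 of 12 populations.

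JUN averaged 277 ± 17.1 CPM in the high tier and 312 ± 25.7 CPM in the low tier (SD, n = 4 each), with a log2 difference of -0.22 and an edgeR adjusted p of 2.2e-06. ARC (-0.35), DUSP1 (-0.19) and IER2 (-0.12) were lower too. EGR1 was higher at 0.17 (edgeR adjusted p = 0.0043), with 109 ± 10.4 CPM in the high tier and 93.4 ± 9.39 CPM in the low tier (SD, n = 4 each). So EGR1 and ATF3 moved in opposite directions here, while both fell with the G2/M score. FOS (0.10), FOSB (0.26), JUNB (0.06) and RASD1 (-0.09) did not pass. Between pools none of the 10 genes differed in edgeR (lowest adjusted p = 0.31), where 0.359% of all genes did.

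The low tier was the deeper one, with median depths of 20921 to 37482 UMIs in the high tier against 27526 to 43792 UMIs in the low tier, and at equal depth ATF3 was at -0.82 and EGR1 at 0.11, no longer called (edgeR adjusted p = 0.11). Without the library block EGR1, IER2, DUSP1 and ARC did not pass (edgeR adjusted p of 0.20 to 0.40), DESeq2 did not call EGR1 or ARC (adjusted p = 0.069 and 0.050), and ARC did not pass without library 4 (-0.23). FOSB passed without library 3 (0.30) and FOS without library 4 (0.16).

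ATF3 fell by this score together with genes of the integrated stress response, the pathway of ATF4 to which ATF3 belongs. Of the 10 genes of that list 8 were lower, with a median log2 difference of -0.28 against 0.01 over all genes. CHAC1, an enzyme that degrades glutathione, was at -0.88 with 18.1 ± 2.74 CPM in the high tier and 32.2 ± 6.07 CPM in the low tier (SD, n = 4 each), and DDIT3 at -0.64. The p53 targets had 8 of 12 lower, with GADD45A at -0.70, and other immediate early genes had 12 of 25 lower and 3 higher, where 18.8% of all genes were lower and 17.8% higher, with BTG1 at -0.36 and MYC at 0.26.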

How the data were processed

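The values are UMI counts, not normalized, from matrices of called cell barcodes deposited by the authors, 1 for each mRNA library, with SBO counts in the same matrix. Cell Ranger 6.0.2, bcl2fastq 2.20.0.422, Seurat 4.1.0 and the build hg38 are named in the submitters' processing notes. The annotation release is not given in the sources used here. Cells were kept at 1000 or more genes and 15% or less mitochondrial UMIs. HTODemux (Seurat 5.3.0, quantile 0.99) assigned cells to the SBOs that were highest in at least 1% of a library's cells. Cells with several SBOs or none were left out, and no other doublet caller was run. Cells with no SBO had JUN at 169 to 218 CPM in the 4 libraries, against 283 to 329 CPM in cells with 1 SBO. RASD1 was at 1.27 to 2.00 CPM in them, against 5.20 to 12.1 CPM. FOS was higher in them in library 2 (105 against 83.2 CPM) and lower in libraries 1, 3 and 4. The levels given are therefore those of cells with 1 SBO and not of whole cultures. Levels are CPM of summed UMIs. Cells were thinned to 10000 UMIs for scores, shares and correlations. Tiers were tested with edgeR 4.0.16 (TMM, filterByExpr, FDR 0.05), leaving out the genes of the score, with DESeq2 1.42.0 as an alternative. The library was a block because the tiers of a library share its preparation and its samples. Deviations of the high and the low tier from the mean of the 4 libraries correlated at 0.77 to 0.87. These deviations include the difference between the pools, so they do not measure an effect of preparation alone. The fit was tested on simulated data. Intervals cover counting error only. Named genes of other lists are the 2 largest called rises and falls among genes of 20 CPM or more, or those of widest range over the populations; 1 such gene is not reported here. The members and lists were chosen with earlier results of these data known.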

Additional observations from a re-analysis of the deposited data

Results flagged for a closer look

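Differences between the pools in the difference between the high and the low tier were tested as an interaction in edgeR, and 7 passed, given as pool 2 minus pool 1 on the log2 scale. By the mesenchymal score they were 0.57 for FOS, 0.36 for DUSP1, 1.56 for ARC and 1.47 for RASD1. By the G2/M score they were -0.24 for JUN, -0.30 for EGR1 and -0.22 for IER2. Dixon's test flagged no outlying library among the 4 for any of the 10 genes, with the highest ratio of gap to range, 0.742 for ARC, under its critical value. The range in that ratio includes the difference between the pools, so the test could miss an outlying library. The pools hold different samples, so pool and sample cannot be told apart, and each pool has 2 loads of the same cells, so these p-values cover technical spread only.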

How the results depend on the processing

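Counts of genes called moved by over 1.5 times in these cases, given as higher and lower. By the mesenchymal score they were 2795 and 2485, with DESeq2 1683 and 1633, and at equal depth 1509 and 1465. By the G2/M score they were 3341 and 3963, with 2518 lower at equal depth. By the mitochondrial share they were 2720 and 2880, with 1345 higher in DESeq2 and 1623 higher at equal depth. With no replicate block for the library they were 460 and 945, 1551 and 1352, and 480 and 443 in the same order of scores. Leaving out 1 library gave 2070 to 2174 higher and 2044 to 2181 lower, 2912 to 3334 and 3200 to 3347, and 2069 to 2308 and 2272 to 2599. IER2 by the mesenchymal score turned to 0.0856 with tiers set over a whole library. The cause was not tested. By the G2/M score FOS, JUNB, EGR1, IER2, ATF3 and ARC stayed called under every alternative run. Population ranges moved by more than the spread between loads in 15 of 100 cases, and co-detection in 2 of 90. The labels give 1 sample per barcode, so spread between cultures is not measured.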
